A study of Mus musculus with 5 samples.

Results

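The genes described here are the glucocorticoid receptor *Nr3c1*, its relative the mineralocorticoid receptor *Nr3c2*, and 8 genes known as targets of the receptor (*Tsc22d3*, *Fkbp5*, *Sgk1*, *Per1*, *Klf9*, *Zbtb16*, *Mt1* and *Mt2*). The 10 genes were picked by name out of the 55487 in the count table and not by a rule on measured values. Of the 10, 8 had enough counts to be tested, while *Nr3c2* had at most 4 counts in a library and *Zbtb16* had none. Across the tested genes no difference between knockdown and control cells passed correction for multiple testing. The clearest differences among the members lay between single libraries. *Klf9* in 1 library labelled as knockdown was at 20.4% of the mean of the other 4. In that library the targeted gene *Gas5* was at 245% of the other 4, against the label. There 37.6% of all genes tested lay over 2-fold from the other libraries. *Mt1* in 1 control library was at 48.5% of the other control.

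The glucocorticoid receptor waits in the cytoplasm in a complex with heat shock proteins, binds cortisol or corticosterone, moves into the nucleus and there binds DNA elements near the genes it activates or represses. In the hippocampus it shares its ligand with the mineralocorticoid receptor, and it takes part in the feedback that ends a stress response. GAS5 is a long non-coding RNA with a hairpin that resembles such an element and is known to bind the receptor's DNA-binding domain in human cells, so the level of the receptor and its targets after loss of GAS5 is a natural question for these data.

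The cells were HT22, a mouse line derived from hippocampus. They were grown with fetal bovine serum, and the labels name no added glucocorticoid. For 48 h they had been exposed to siRNA at 10 nM. Of the libraries, 1 came from siRNA210 and 2 came from siRNA596, both directed at GAS5, and the other 2 came from NC siRNA, a negative control. The samples' treatment label calls the NC samples untreated, but their titles and the protocol give NC siRNA. The libraries with GAS5 siRNA together form the KD group. Nothing in the labels says that the libraries of a group came from separate cultures, so *P*-values measure the spread between these libraries, which may be technical.

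Libraries held between 30660265 and 36492134 counts. *Gas5*, the targeted gene (ENSMUSG00000053332), was at 90.4 and 76.0 CPM (counts scaled to a common depth) in NC replicates 1 and 2, at 59.7 with siRNA210, at 65.9 in siRNA596 replicate 1 and, in the library with the label siRNA596 replicate 2, at 179. The last value, 245% of the mean of the other 4 libraries, goes against the label. In that library 37.6% of 16142 genes lay over 2-fold from the others, against 2.65 to 4.42% when each of the other libraries was set against the 3 that remained. The members' results are therefore given with all 5 libraries and without that library. *Gas5* itself had a log2 fold change of KD over NC of 0.29 (SE 0.528) with all 5 libraries, with an unadjusted *P* of 0.607 in edgeR's quasi-likelihood test. Without that library it was -0.41 (SE 0.106), with an unadjusted *P* of 0.00377 and an adjusted *P* of 0.967, so the direction of the targeted gene turned with 1 library. Of 11 neuron markers, 6 (*Nefl*, *Nefm*, *Snap25*, *Stmn2*, *Gria2* and *Dcx*) had no count in any library, while *Map2* was at 31.6 to 87.0 CPM and *Tubb3* at 14.9 to 27.1. The 6 fibroblast and mesenchyme markers summed to between 7900 and 9083 CPM and were led by *Col1a1* and *Vim*. Only 3 of the 11 neuron markers had over 3 counts in every library, and 1 of these, *Syp*, was at 0.112 to 0.568 CPM. *Rbfox3* had 2 counts in 1 library and 0 in the rest. The tissue label, hippocampal neuronal, was thus met by some of its markers and not by most. In bulk RNA, fewer cells of a type and less RNA per cell cannot be told apart.

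Both receptors were measured first. *Nr3c1* (ENSMUSG00000024431, GRCm38 chromosome 18, 39410545 to 39519421, minus strand) was at 89.9 CPM in NC replicate 1, 82.7 in NC replicate 2, 82.6 with siRNA210, 93.6 in siRNA596 replicate 1 and 36.4 in the library labelled siRNA596 replicate 2. The first 4 values overlapped between NC and KD, and the last stood apart at 41.7% of their mean. With all 5 libraries the log2 fold change of KD over NC was -0.28 (95% interval -1.31 to 0.74), with an adjusted *P* of 0.963 by the Benjamini-Hochberg method. Without the library labelled siRNA596 replicate 2 it was 0.03 (95% interval -0.18 to 0.24), with an adjusted *P* of 0.983, an interval that holds folds between 0.881 and 1.18. In those 4 libraries the intervals of *Fkbp5*, *Sgk1* and *Nr3c1* were the narrowest of the 8 tested members.

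*Nr3c2* (ENSMUSG00000031618, GRCm38 chromosome 8, 76899442 to 77245012, plus strand), which binds the same hormones with higher affinity, had 4 and 2 counts in NC replicates 1 and 2, 1 with siRNA210, and 2 in each siRNA596 library. These 11 counts lay at or near the floor of 3 counts in a library, which equals 0.0782 to 0.114 CPM, and no comparison was made. The exact Poisson intervals overlapped, with 1.09 to 10.2 counts in NC replicate 1 and 0.0253 to 5.57 with siRNA210. On the scale of RPKM, reads scaled by exonic length and by depth, which allows genes to be compared, *Nr3c1* averaged 11.4 in the 4 libraries and *Nr3c2* 0.00964.

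*Zbtb16* (ENSMUSG00000066687, GRCm38 chromosome 9, 48654297 to 48836222, minus strand), a zinc finger repressor that is strongly induced by glucocorticoids in many cell types, had 0 counts in all 5 libraries. For a count of 0 the exact Poisson interval reached up to 3.69 counts in each library. The floor of 3 counts equals 0.0782 to 0.114 CPM, and a level below it could not be detected at this depth.

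The order of levels among the members was read from RPKM over the 4 libraries, leaving out the one labelled siRNA596 replicate 2. *Mt1* was highest at 281 ± 91.3 (SD, n = 4), above 99.5% of the 27255 genes with a count and a known length when ranked by the NC mean. *Sgk1* (12.9 ± 1.18), *Nr3c1* (11.4 ± 0.712) and *Per1* (11.3 ± 1.21) followed with ranges that overlapped. *Tsc22d3* (7.18 ± 0.596) and *Fkbp5* (6.86 ± 0.199) also overlapped with each other and lay below those 3 genes in every library. *Klf9* came next at 3.70 ± 0.700 and *Mt2* at 1.29 ± 0.438, each with a range apart from its neighbours. The receptor thus stood at the level of its mid-range targets, and *Mt1* stood far above all of them. The plot of CPM in each library shows these levels before correction for length.

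**Figure D1:**
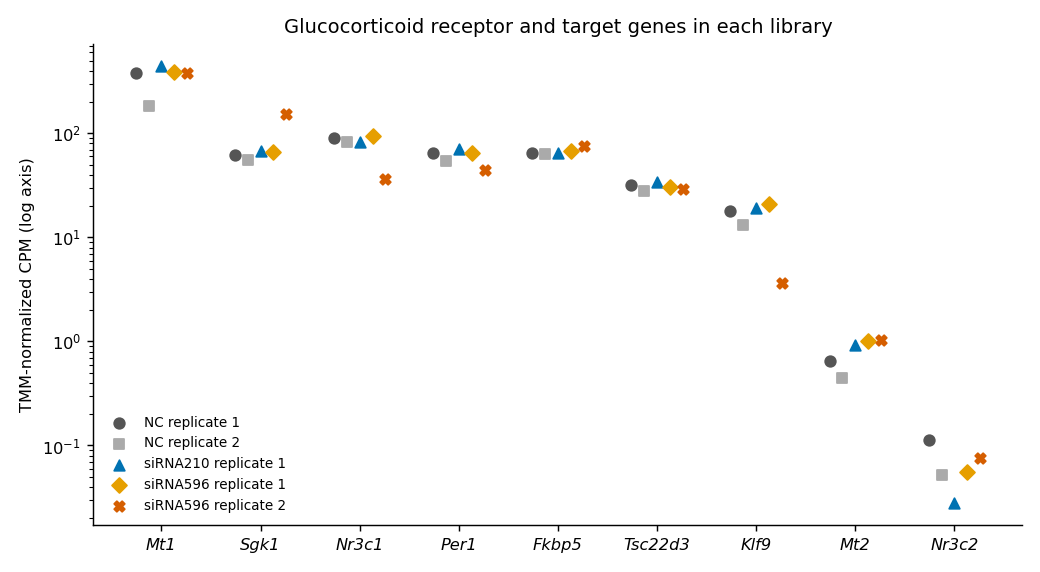
TMM-normalized CPM (log axis) of 9 members in each of the 5 libraries, with 1 point per library. *Zbtb16*, at 0 in all of them, is not drawn. The library labelled siRNA596 replicate 2 lies apart for *Klf9* (3.64), *Nr3c1* (36.4) and *Sgk1* (155), and NC replicate 2 is the lowest for *Mt1* (185).

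*Tsc22d3* (ENSMUSG00000031431, GRCm38 chromosome X, 140539528 to 140600659, minus strand) encodes GILZ, an anti-inflammatory leucine zipper protein and a classical readout of the receptor. It was at 32.0 and 27.9 CPM in NC replicates 1 and 2, 34.1 with siRNA210, 30.6 in siRNA596 replicate 1 and 29.1 in the library labelled siRNA596 replicate 2. KD and NC values overlapped. The log2 fold change was 0.06 (95% interval -0.45 to 0.58) with all libraries and 0.11 (95% interval -0.16 to 0.38) with 4, with adjusted *P*-values of 0.971 and 0.974.

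*Fkbp5* (ENSMUSG00000024222, GRCm38 chromosome 17, 28399094 to 28517527, minus strand) encodes a co-chaperone that lowers the receptor's affinity for hormone and is itself induced by it. Its CPM was 64.2 and 63.5 in NC replicates 1 and 2, 64.5 with siRNA210, 67.7 in siRNA596 replicate 1 and 75.7 in the library labelled siRNA596 replicate 2. All KD values lay above both NC values, although siRNA210 did so by less than 1% of the level. The log2 fold change was 0.12 (95% interval -0.37 to 0.61) with all libraries and 0.05 (95% interval -0.14 to 0.24) with 4, and the adjusted *P*-values were 0.963 and 0.977.

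*Sgk1* (ENSMUSG00000019970, GRCm38 chromosome 10, 21882184 to 21999903, plus strand) encodes a kinase that regulates ion channels and answers to serum as well as to glucocorticoids. Its promoter window is printed because it holds a full receptor palindrome, which only 3 of 32851 RefSeq promoter windows (0.00913%) contained. The windows run from 250 bases before to 50 bases after a start site in GRCm38.p6, and 8 of the 10 members had 1 or more, 16 windows in all; *Nr3c1* and *Zbtb16* had none. The palindrome searched was AGAACA, any 3 bases, then TGTTCT. It was found in 1 of 6 *Sgk1* windows, chr10:21993640-21993939 on the plus strand, where it begins at position -189 with the start site as 0. Capitals mark it:
Sgk1: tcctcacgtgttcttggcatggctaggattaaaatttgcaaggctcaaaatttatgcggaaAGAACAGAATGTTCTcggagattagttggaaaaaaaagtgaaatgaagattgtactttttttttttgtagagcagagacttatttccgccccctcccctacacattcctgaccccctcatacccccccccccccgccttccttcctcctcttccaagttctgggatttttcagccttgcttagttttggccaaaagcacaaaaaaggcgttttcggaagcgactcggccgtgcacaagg
The half-site AGAACA alone, searched on both strands and part of the palindrome, was in 19% of all windows and in windows of *Sgk1* and *Tsc22d3* among the members. The E-box CACGTG, bound by clock proteins, was in 7.15% of all windows and in 1 window each of *Sgk1*, *Per1* and *Fkbp5*. A match describes letters in the window and shows no binding.

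*Sgk1* was at 62.4 and 55.6 CPM in NC replicates 1 and 2, 68.5 with siRNA210, 66.9 in siRNA596 replicate 1 and 155 in the library labelled siRNA596 replicate 2. All 3 KD values exceeded both NC values, and the last was 244% of the mean of the other 4. With all libraries the log2 fold change was 0.71 (95% interval -0.36 to 1.78), with an adjusted *P* of 0.963. With 4 libraries it was 0.20 (95% interval -0.014 to 0.41), with an unadjusted *P* of 0.0636 and an adjusted *P* of 0.967. The cells given siRNA210 stood at 116% of the NC mean and siRNA596 replicate 1 at 113%.

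*Per1* (ENSMUSG00000020893, GRCm38 chromosome 11, 69095217 to 69109960, plus strand), a repressor within the circadian clock that the receptor induces directly, was at 64.8 and 54.2 CPM in NC replicates 1 and 2, 70.6 with siRNA210, 64.3 in siRNA596 replicate 1 and 44.0 in the library labelled siRNA596 replicate 2. KD and NC overlapped with or without the last library. Its log2 fold change was 0.0033 (95% interval -0.67 to 0.68) with all libraries and 0.18 (95% interval -0.065 to 0.42) with 4, with adjusted *P*-values of 0.999 and 0.967.

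*Klf9* (ENSMUSG00000033863, GRCm38 chromosome 19, 23141226 to 23168134, plus strand), a Krüppel-like repressor of transcription induced by glucocorticoids in neurons, was at 17.9 and 13.2 CPM in NC replicates 1 and 2, 19.1 with siRNA210, 21.1 in siRNA596 replicate 1 and 3.64 in the library labelled siRNA596 replicate 2. The 2 other KD libraries were above both NC libraries, whereas the last was below all of them at 20.4% of the mean of the other 4. The log2 fold change was -0.09 (95% interval -1.82 to 1.64, adjusted *P* = 0.985) with all libraries and 0.37 (95% interval -0.0041 to 0.74, adjusted *P* = 0.967) with 4. The unadjusted *P* of the latter, 0.0521, was the smallest among the members.

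*Mt1* (ENSMUSG00000031765, GRCm38 chromosome 8, 94179082 to 94180327, plus strand) and *Mt2* (ENSMUSG00000031762, chromosome 8, 94172664 to 94173568, plus strand) encode metallothioneins, small cysteine-rich proteins that bind zinc and copper. They are induced by metals through the factor MTF1 and also by glucocorticoids, and *Mt2* ends 5513 bases before *Mt1* begins. Their windows are printed because both hold several copies of the metal response core, searched on both strands as TGCACNC or TGCGCNC and marked in capitals. The *Mt1* window is chr8:94178839-94179138 and the *Mt2* window chr8:94172368-94172667, both GRCm38.p6 and plus strand:
Mt1: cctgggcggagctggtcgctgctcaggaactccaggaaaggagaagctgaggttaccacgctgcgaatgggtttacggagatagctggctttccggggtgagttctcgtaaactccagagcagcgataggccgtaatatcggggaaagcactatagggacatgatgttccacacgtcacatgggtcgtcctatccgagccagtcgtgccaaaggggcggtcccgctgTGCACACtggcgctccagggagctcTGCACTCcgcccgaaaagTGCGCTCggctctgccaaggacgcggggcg
Mt2: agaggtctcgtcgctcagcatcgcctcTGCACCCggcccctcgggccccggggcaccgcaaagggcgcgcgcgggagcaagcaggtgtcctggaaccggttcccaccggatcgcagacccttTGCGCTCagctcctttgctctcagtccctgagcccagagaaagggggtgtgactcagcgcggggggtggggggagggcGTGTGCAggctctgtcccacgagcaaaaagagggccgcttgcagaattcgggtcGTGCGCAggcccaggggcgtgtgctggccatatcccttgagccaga
The *Mt1* window held 3 cores and the *Mt2* window 4. Of all RefSeq windows 25.7% held at least 1, 1.97% at least 3 and 0.517% at least 4. Neither window held the receptor's half-site.

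*Mt1* was at 382 CPM in NC replicate 1, 185 in NC replicate 2, 446 with siRNA210, 388 in siRNA596 replicate 1 and 384 in the library labelled siRNA596 replicate 2. The 3 KD values were above both NC values, but NC replicate 1 lay within 1% of the lowest of them, and NC replicate 2 alone was low, at 48.5% of NC replicate 1. The log2 fold change was 0.52 (95% interval -0.35 to 1.38, adjusted *P* = 0.963) with all libraries and 0.56 (95% interval -0.024 to 1.14, adjusted *P* = 0.967) with 4. Leaving out NC replicate 2 took the latter to 0.13, and leaving out NC replicate 1 took it to 1.17. Each of these leaves 1 NC library.

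*Mt2* had 23 and 17 counts in NC replicates 1 and 2, 33 with siRNA210, 36 in siRNA596 replicate 1 and 27 in the library labelled siRNA596 replicate 2. As CPM these were 0.654, 0.443, 0.922, 1.01 and 1.02, so every KD library was above both NC libraries. The exact Poisson intervals overlapped, with 14.6 to 34.5 counts in NC replicate 1 and 22.7 to 46.3 with siRNA210. The log2 fold change was 0.84 (95% interval -0.36 to 2.04, adjusted *P* = 0.963) with all libraries and 0.81 (95% interval -0.32 to 1.94, adjusted *P* = 0.967) with 4. Per length, *Mt1* exceeded *Mt2* by 177 to 275 times across the 5 libraries. The 2 genes are paralogs of similar coding sequence, and the treatment of reads with several positions is not given in the sources used here, so the split of reads between them is uncertain.

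Over the 8 tested members, then, none was called at an adjusted *P* of 0.05 with all libraries, where 0% of 16142 genes were, nor with 4 libraries, where 0% of 15867 genes were. DESeq2 also called 0 members in both. By unadjusted *P* under 0.05 the members gave 0 of 8 in both edgeR fits, against 0.372% and 3.3% of all genes. This count changed in alternatives of the fit with 4 libraries. With no filter on low counts *Klf9* and *Mt1* had unadjusted *P*-values of 0.0365 and 0.0112, and with offsets for length and GC content 0.0435 and 0.0458. The share of all genes under 0.05 in these alternatives is not given here, and neither gene passed correction in them. Leaving out NC replicate 1 as well left 1 NC library. The log2 fold changes of *Sgk1*, *Per1*, *Klf9* and *Mt1* were then 0.282, 0.313, 0.608 and 1.169. Leaving out siRNA596 replicate 1 instead left 1 KD library, and *Mt1* was at 0.652. With all libraries but NC replicate 1 the log2 fold change of *Mt1* was 1.129. Members in which every KD library exceeded both NC libraries numbered 4 of 8 with all libraries (*Fkbp5*, *Sgk1*, *Mt1* and *Mt2*), where 8.3% of all genes did so. With 4 libraries they numbered 5 of 8 (*Klf9* in addition), against 16.7% of all genes. The log2 fold changes were above 0 for 6 of 8 members with all libraries and for 8 of 8 with 4, with a median of 0.19 in the latter, while over all genes 49.5% were above 0 and the median was -0.0023. With library size as the only scaling, 4 of 8 were above 0 with all libraries and 8 of 8 with 4. Over all genes 6635 of 16142 and 7156 of 15867 were above 0 under that scaling, so it moved all genes and not the members alone.

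**Figure D2:**
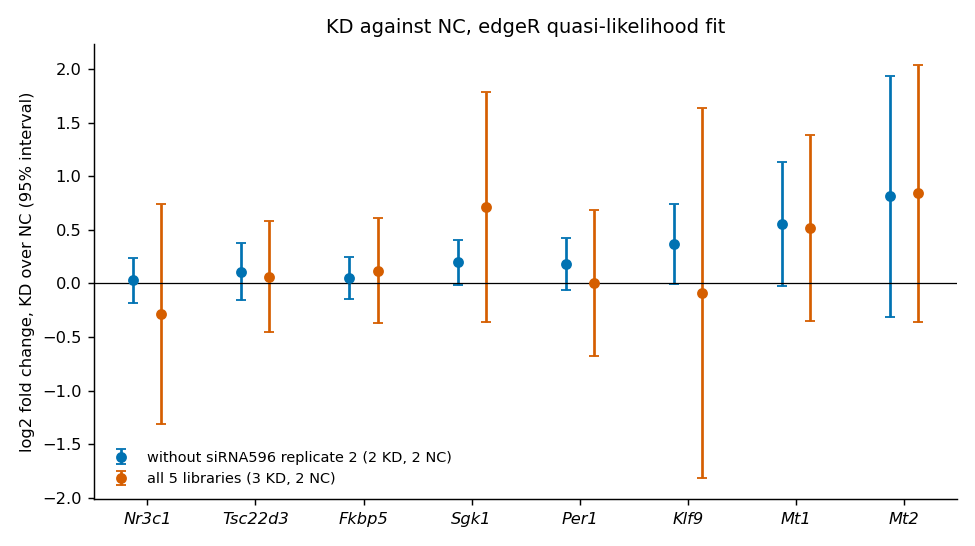
Log2 fold change of KD over NC for the 8 tested members, with 95% intervals from edgeR's quasi-likelihood fit, without the library labelled siRNA596 replicate 2 (2 KD and 2 NC libraries) and with all 5 (3 KD and 2 NC libraries). Every interval includes 0, and those with all libraries are wider, as for *Klf9* (-1.82 to 1.64 against -0.0041 to 0.74).

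The 2 NC libraries differed from each other in several members. Among the 4 libraries, NC replicate 2 was the lowest for 7 of 8 members, all but *Nr3c1*, whereas it was the lowest for 34.3% of all genes. The log2 ratio of NC replicate 2 to NC replicate 1 was -1.04 for *Mt1*, -0.56 for *Mt2*, -0.45 for *Klf9*, -0.26 for *Per1*, -0.19 for *Tsc22d3*, -0.17 for *Sgk1*, -0.12 for *Nr3c1* and -0.017 for *Fkbp5*. Leaving this library out as well, which sets 2 KD libraries against 1 NC library, gave a member median of 0.088 with 7 of 8 above 0, where 50.8% of all genes were.

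Each siRNA was also set against the NC mean, as log2 ratios with no test, since siRNA210 has 1 library. With siRNA210 the ratios ran from -0.062 for *Nr3c1* to 0.75 for *Mt2*, and those of *Mt1*, *Klf9*, *Per1*, *Sgk1* and *Tsc22d3* were 0.66, 0.30, 0.25, 0.21 and 0.19. In siRNA596 replicate 1 they ran from 0.031 for *Tsc22d3* to 0.88 for *Mt2*, with 0.45 for *Mt1*, 0.44 for *Klf9* and 0.18 for *Sgk1*. Both use the same NC libraries, so their likeness is no independent repeat. The 2 libraries labelled siRNA596 against NC, by edgeR, gave no member at an adjusted *P* of 0.05, where 0% of 15827 genes were called, and the members' adjusted *P*-values ran from 0.904 to 0.999.

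The library labelled siRNA596 replicate 2 differed from the other 4 in 3 of 8 members by over 2-fold, on a scale of log2(CPM + 0.1). By the same measure 37.6% of 16142 genes differed, so this count does not set the members apart. *Klf9* was lower by a log2 difference of -2.26 and *Nr3c1* by -1.26, and *Sgk1* was higher by 1.29. *Per1* followed at -0.53, and *Mt2*, *Fkbp5*, *Mt1* and *Tsc22d3* lay between -0.099 and 0.39. In this library the difference of a gene also went with its exonic length, with a Spearman correlation of -0.369 across genes that share the library, against -0.0313 to 0.0367 in the other 4. The median difference was 0.59 in the shortest of 4 equal length classes, 0.28 and -0.16 in the next classes and -0.73 in the longest. *Nr3c1* (7684 bases) belongs to the longest class and lay below its median, as *Fkbp5* (9468 bases) did not, and *Klf9* (4815 bases) and *Sgk1* (4903 bases), of nearly equal length in the third class, lay on opposite sides. With offsets for length and GC content in the fit of all 5 libraries, the log2 fold change of *Nr3c1* went from -0.28 to -0.065, that of *Fkbp5* from 0.12 to 0.33, that of *Sgk1* from 0.71 to 0.89 and that of *Klf9* from -0.09 to -0.056, and none passed correction.

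**Figure D3:**
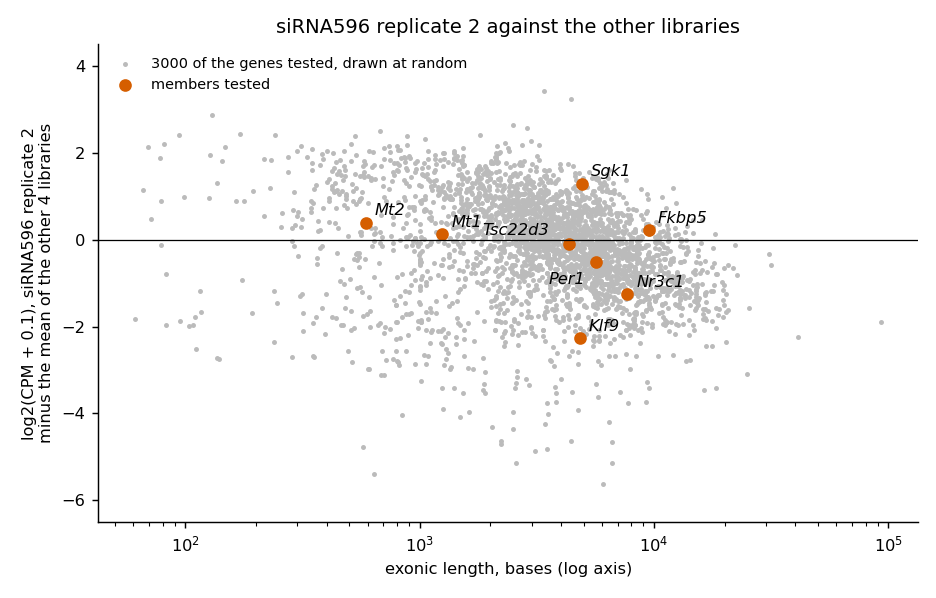
Difference between the library labelled siRNA596 replicate 2 and the mean of the other 4 on the log2(CPM + 0.1) scale, against exonic length in bases (log axis), for the 8 tested members (large points) and a random draw of the genes tested (small points). Longer genes lie lower, and *Klf9* (-2.26), *Nr3c1* (-1.26) and *Sgk1* (1.29) lie over 2-fold from the other libraries. So do 37.6% of all genes tested.

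The genes whose profile over the 5 libraries was most like that of *Nr3c1*, out of 10574 genes whose mean reached 5 CPM, were *Zyg11b*, *Mtmr11* and *Ppp2r3a*. Their root mean square differences from it were 0.0196, 0.0263 and 0.0288 on the log2 scale, where the median gene was at 0.537. *Zyg11b*, for example, was at 96.8, 87.6, 85.7, 97.7 and 38.7 CPM in the order of libraries used above. The likeness covers 5 points, and in all 4 genes the library labelled siRNA596 replicate 2 was far below the rest.

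Genes that hold, fold and carry the receptor had a median log2 fold change of KD over NC of 0.018 with 4 libraries. The median was 0.25 once the library labelled siRNA596 replicate 2 was counted. Of 13 chaperones and transport factors, all tested, none had an unadjusted *P* under 0.05 in either fit. With 4 libraries 9 were above 0 and with all 5 libraries 12, where 49.5% and 51% of all genes were. Under library size as the only scaling 7 and 11 were, where 7156 of 15867 and 6635 of 16142 genes were. *Hsp90ab1*, a chaperone that holds the receptor, was at 3288 and 3286 CPM in NC, 3418 and 3413 in the first 2 KD libraries and 5316 in the library labelled siRNA596 replicate 2, with a log2 fold change of 0.053 (SE 0.072) in the 4 libraries and 0.30 (SE 0.307) in all 5. *Hspa8*, which loads client proteins, had 0.073 (SE 0.080) and 0.51 (SE 0.407).

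Coregulators, which the bound receptor recruits to open or close chromatin, mostly had log2 fold changes below 0. Of 12 tested, 2 were above 0 with 4 libraries and 0 with all 5, where 49.5% and 51.0% of all genes were, and the medians were -0.091 and -0.40. All but *Carm1* (4852 bases) had exonic lengths of 6475 to 15642 bases, within the longest length class. In the library labelled siRNA596 replicate 2 the median difference of that class was -0.73. The part of length in this list was not tested. *Crebbp*, a histone acetyltransferase, was at 84.2 and 100.9 CPM in NC, 75.2 with siRNA210, 78.8 in siRNA596 replicate 1 and 54.96 in the library labelled siRNA596 replicate 2, so KD and NC did not overlap. Its log2 fold change with 4 libraries was -0.27 (SE 0.102), with an unadjusted *P* of 0.027 that did not pass correction, and -0.41 (SE 0.247) with all 5. *Ncor1*, a corepressor, had -0.11 (SE 0.085) and -0.44 (SE 0.450) in the same order, and *Smarca4*, an ATPase that remodels chromatin, -0.075 (SE 0.093) and -0.037 (SE 0.211). Without NC replicate 2 as well, 5 of 12 were above 0, where 50.8% of all genes were, and the list median was -0.022.

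Of 36 further glucocorticoid-induced genes, 31 were tested. With 4 libraries 26 were above 0, where 49.5% of all genes were, with a median of 0.13. With all 5 libraries 18 were, against 51% of all genes. Under library size as the only scaling 25 were with 4 libraries and 14 with all 5, where 7156 of 15867 and 6635 of 16142 genes were. *Ddit4*, an inhibitor of mTOR signalling, was at 229 and 184 CPM in NC, 285 with siRNA210, 236 in siRNA596 replicate 1 and 79.2 in the library labelled siRNA596 replicate 2. *Cdkn1a*, which encodes the cell cycle inhibitor p21, was at 66.1, 31.6, 89.6, 70.7 and 12.1 CPM in the same order. In the 4 libraries their log2 fold changes were 0.33 (SE 0.124, unadjusted *P* = 0.0242) and 0.72 (SE 0.271, unadjusted *P* = 0.0267), and neither passed correction. With all 5 libraries they were -0.045 (SE 0.534) and 0.24 (SE 0.810). NC replicate 2 was the lowest of the 4 libraries in both genes and in 19 of the 31 genes, against 34.3% of all genes. Without it as well, which leaves 1 NC library, 23 of 32 tested genes were above 0 with a median of 0.092, where 50.8% of all genes were above 0. The most abundant of the list, *Anxa1*, which encodes an anti-inflammatory annexin, and *Cited2*, a transcriptional coregulator, had log2 fold changes of -0.065 (SE 0.076) and 0.14 (SE 0.078) with 4 libraries and 0.27 (SE 0.337) and 0.23 (SE 0.212) with all 5.

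Among 12 genes that the receptor is known to repress, 5 were tested and none had an unadjusted *P* under 0.05 in either fit. *Nos2*, the inducible nitric oxide synthase, was at 162, 46.8, 195 and 163 CPM in NC replicates 1 and 2, siRNA210 and siRNA596 replicate 1, and at 5.61 in the library labelled siRNA596 replicate 2. Both NC replicate 2 and the library labelled siRNA596 replicate 2 were thus low. Without NC replicate 2 as well, which leaves 1 NC library, 2 of 5 were above 0 with a median of -0.10, where 50.8% of all genes were above 0. In that fit *Cxcl10*, a chemokine for T cells, had a log2 fold change of -0.299, and *Ptgs2*, an enzyme of prostaglandin synthesis, had -0.266. With the 4 libraries these were -0.20 (SE 0.110) and 0.26 (SE 0.325), so *Ptgs2* changed sign. Both genes were named after their values in the fit with 1 NC library were seen, and *P*-values of that fit are not given. *Ccl2*, a chemokine for monocytes, was at 107, 93.1, 91.4 and 108 CPM in the first 4 libraries and at 292 in the last.

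The metal response list, made of the factor MTF1, zinc transporters and *Hmox1*, had no gene with an unadjusted *P* under 0.05. In it 2 of 4 were above 0 with 4 libraries and 1 of 4 with all 5, where 49.5% and 51% of all genes were. *Hmox1*, which degrades heme and answers to metals and oxidants, was at 399 CPM in NC replicate 1, 124 in NC replicate 2, 427 with siRNA210, 369 in siRNA596 replicate 1 and 211 in the library labelled siRNA596 replicate 2. Its low value in NC replicate 2 accompanied that of *Mt1* in the same library, and KD and NC overlapped. *Slc39a10*, a zinc importer, had a log2 fold change of 0.058 (SE 0.099) with 4 libraries and -0.31 (SE 0.508) with all 5. Without NC replicate 2 as well 0 of 4 genes of the list were above 0, where 50.8% of all genes were.

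The circadian clock list, the setting of *Per1*, had the most genes with an unadjusted *P* under 0.05 among these lists. With 4 libraries 3 of 14 were higher and 1 lower by that measure, which 3.3% of all genes met, and none passed correction. With library size as the only scaling 3 met it, as did 534 of 15867 genes. *Ciart* and *Bhlhe40*, repressors within the clock, had log2 fold changes of 0.38 (SE 0.135, unadjusted *P* = 0.0202) and 0.33 (SE 0.133, unadjusted *P* = 0.033). *Cry2*, a partner of the PER proteins, had 0.28 (SE 0.123, unadjusted *P* = 0.0487), and *Clock*, the activator they oppose, had -0.21 (SE 0.090, unadjusted *P* = 0.0452). *Bhlhe40* was at 123 and 89.2 CPM in NC, 137 with siRNA210, 130 in siRNA596 replicate 1 and 41.0 in the library labelled siRNA596 replicate 2, so that the KD libraries lay on both sides of NC once the last is counted. Unlike in the members tested, in *Ciart* NC replicate 1, at 17.7 CPM, was lower than NC replicate 2, at 20.4. With all 5 libraries 0 of 14 had an unadjusted *P* under 0.05. In that fit 5 were above 0 and with 4 libraries 10, where 51% and 49.5% of all genes were. NC replicate 2 was the lowest of the 4 libraries in 8 of the 14, against 34.3% of all genes. Without it as well, which leaves 1 NC library, 9 of 14 were above 0, where 50.8% of all genes were. The log2 fold change of *Ciart* was then 0.486.

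Of 5 tested genes for hormone metabolism and export, 3 were above 0 with 4 libraries and 1 with all 5. Of 5 tested paralogs of the receptor and its targets 4 and 2 were, where 49.5% and 51.0% of all genes were, with no unadjusted *P* under 0.05 in either list. *H6pd*, which supplies NADPH for the enzyme that regenerates active glucocorticoid, had a log2 fold change of 0.22 (SE 0.107) with 4 libraries and -0.016 (SE 0.337) with all 5, and *Abcb1b*, an exporter of steroids, 0.038 (SE 0.110) and -0.021 (SE 0.210). *Tsc22d1* and *Tsc22d2*, relatives of *Tsc22d3*, had 0.12 (SE 0.080) and -0.014 (SE 0.078) with 4 libraries and 0.17 (SE 0.206) and -0.31 (SE 0.391) with all 5.

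**Figure D4:**
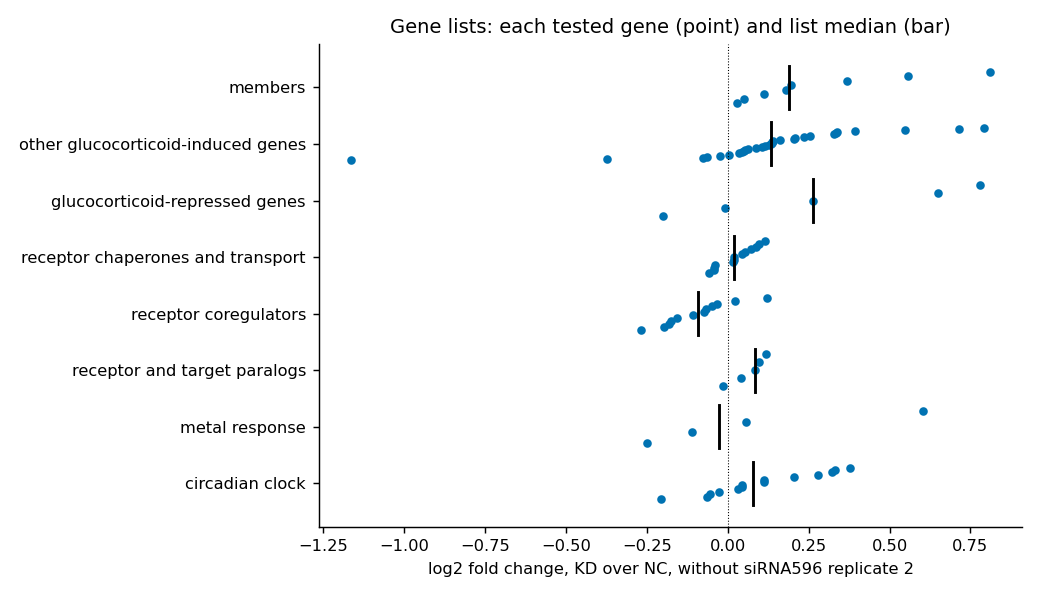
Log2 fold change of KD over NC without the library labelled siRNA596 replicate 2 for each tested gene (point) of the members and of 7 lists, with the list median (bar). The members' median is 0.19 and that of the other glucocorticoid-induced genes 0.13, while the coregulators' median is -0.091.

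Markers of other cell types were at low levels next to the mesenchymal ones. The summed CPM of 6 astrocyte markers was 34.03 to 52.81 in NC and 28.15 to 37.84 in KD, with *Slc1a3*, a glutamate transporter, as the most abundant and *Aldoc* next, and 1 marker at 0 in all libraries. The 5 microglia markers, led by *Csf1r* and *Aif1*, summed to 1.14 to 1.43 in NC and 1.37 to 2.16 in KD. *Slc1a3* had a log2 fold change of -0.54 (SE 0.210) with an unadjusted *P* of 0.029 in the 4 libraries and -0.43 (SE 0.297) in all 5, and its KD and NC values overlapped. The neuron markers, led by *Map2* and *Tubb3*, summed to 94.62 to 102.1 in NC and 51.24 to 100.8 in KD, and their part in the members' values was not tested.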

How the data were processed

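RNA was sequenced from 5 libraries of HT22 cells. The counts as deposited are whole numbers of reads per gene with no normalization, made by the authors by trimming, alignment to GRCm38 with HISAT2 2.1.0 and counting with featureCounts 2.0.1 on an Ensembl annotation. The strand setting and the treatment of reads with several positions are not given in the sources used here. The deposited DESeq2 columns (fold changes and *P*-values) were not used.

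Of 55487 genes 27363 had a count, and 99.4% of identifiers were named through the GENCODE annotation of GRCm38, from which lengths and coordinates come. CPM used TMM over the 5 libraries, and RPKM used the union of exons. Tests used edgeR 4.0.16 in R 4.3.3 (glmQLFit, glmQLFTest, filterByExpr) with Benjamini-Hochberg adjustment over all genes tested, and DESeq2 1.42.0 served as an alternative. Scripts were tested on simulated data. Counts of 3 or fewer were the floor. Between 62 and 68% of counts from 1 to 20 were even, so counting intervals, which cover counting error only, treat as separate what may be pairs of reads. Sequences are from RefSeq (GRCm38.p6).

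The members and gene lists were chosen with earlier results of these data known, as was the fit without siRNA596 replicate 2. Named genes are the members, *Gas5*, the 2 most abundant of each list, up to 4 per list of the smallest unadjusted *P* under 0.05 in either fit, and the 3 genes most like *Nr3c1*. Alternatives were DESeq2, other scalings, other filters, length and GC offsets, a replicate block and leaving out each library. Leaving out libraries of siRNA596 against NC, and NC replicate 2 for the lists, were chosen after seeing the data. A gene that falls under the rule for named genes, and its list, are not reported here.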

Additional observations from a re-analysis of the deposited data

How the results depend on the processing

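No member passed an adjusted *P* of 0.05 in any alternative with all 5 libraries or with the 4, and 153 of 168 alternative fold changes kept their direction. By the study's rule (unadjusted *P* under 0.05 and an absolute log2 fold change over 1) 0 members passed, except 1, *Mt1*, without NC replicate 1 in both fits, so that leaving out single libraries gave 0 to 1. For siRNA596 against NC leaving out single libraries gave 0 to 3 by either rule, and the 3 (*Sgk1*, *Nr3c1* and *Klf9*) came without siRNA596 replicate 1, when the library labelled replicate 2 stands alone and 8292 genes are called. The cause was not tested.

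With all 5 libraries *Per1* reversed to -0.076 with library size only, -0.006 with no filter, -0.01 with at least 10 counts in every library and -0.076 with length and GC offsets, and *Tsc22d3* to -0.033 with library size only. Length and GC offsets took *Nr3c1* to -0.065 and *Fkbp5* to 0.327. Leaving out libraries gave -0.035 to 0.159 for *Tsc22d3*, -0.133 to 0.179 for *Per1*, -0.451 to 0.369 for *Klf9* and -0.536 to 0.029 for *Nr3c1*, and with 4 libraries -0.066 to 0.114 for *Nr3c1*, 0.019 to 0.21 for *Tsc22d3*, 0.012 to 0.082 for *Fkbp5*, 0.119 to 0.282 for *Sgk1*, 0.058 to 0.313 for *Per1*, 0.164 to 0.608 for *Klf9*, 0.129 to 1.169 for *Mt1* and 0.558 to 1.113 for *Mt2*. With the 4 libraries *Tsc22d3*, *Sgk1*, *Per1*, *Klf9*, *Mt1* and *Mt2* were lowest without NC replicate 2 and highest without NC replicate 1. The cause was not tested.

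By the study's rule 57 genes passed with all 5 libraries (167 with no filter, 37 with at least 10 counts) and 139 with 4 (67 by DESeq2, 282 with no filter, 73 with at least 10 counts). Leaving out single libraries gave 33 to 139, 125 to 374 and, for siRNA596 against NC, 27 to 5369 genes (41 with all its libraries, 389 by DESeq2). With 4, DESeq2 called 1 gene by adjusted *P* (*Gm7336*), as did edgeR without siRNA210 (*Gm9242*), both named after their values were seen. The replicate block left 0 members called for siRNA596 against NC and took the study's rule from 41 to 426 genes. The deviations of same-numbered libraries correlated at 0.103 over 15827 genes, from 2 pairs whose labels state only a number. With 4 libraries the log2 fold change of *Mt1* was 0.129 without NC replicate 2 and 1.169 without NC replicate 1. With 2 NC libraries small changes in these genes may go undetected, and no detection limit was computed.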
